A study of Mus musculus with 6 samples.

Results

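The BCL2 family decides whether a cell commits to death through its mitochondria, and 10 of its genes were followed here in leukaemic mouse pre-B cells supplied with Ikaros. They are the survival genes Bcl2, Bcl2l1 and Mcl1, the BH3-only death genes Bcl2l11, Bmf, Bbc3, Pmaip1 and Bad, and the effector genes Bax and Bak1. Members were taken as probe sets whose platform annotation gives 1 of these symbols. This found 9 probe sets for 9 of the 10 genes, among 19936 genes with a probe set of 1 symbol, and Bax was not analysed here. The IKZF1 group held 3 arrays of cells transduced with pMIG-IKZF1, a retroviral vector carrying IKZF1 (it encodes Ikaros, a zinc finger regulator of lymphocyte genes), and the empty vector group 3 arrays of cells transduced with pMIG alone. All cells were wild-type C57Bl6 pre-B cells, labelled with an age of 4 weeks and transformed by BCR-ABL1, a fusion tyrosine kinase that drives Philadelphia-positive lymphoblastic leukaemia, so the control cells carried the oncogene too. GFP-positive cells were sorted and total RNA was prepared 3 days after transduction. The labels name neither the species nor the isoform of the insert, and leave unsaid whether replicate arrays stem from different cultures or mice. The p-values therefore cover only the spread among these 6 samples, which could be technical.

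The family works by binding between its own members. The survival proteins BCL2, BCL-XL (from Bcl2l1) and MCL1 hold the effectors BAX and BAK (from Bak1) inactive, and the BH3-only proteins, among them BIM (from Bcl2l11), BMF, PUMA (from Bbc3), NOXA (from Pmaip1) and BAD, occupy the groove of the survival proteins or engage the effectors directly. Freed effectors form pores in the outer mitochondrial membrane, cytochrome c leaves, and caspases are activated. In pre-B cells driven by BCR-ABL1, STAT5 is known to raise Bcl2l1, kinase signalling is known to hold BIM down, and MCL1 is known to be needed for survival.

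Ikzf1 itself read 8711, 9054 and 8551 on the IKZF1 arrays, against 3697, 3512 and 4045 on the empty vector arrays (intensity, the deposited linear probe set signal), so the arrays bore out their labels. Of 15 genes chosen to mark pre-B cells 14 were measured, and all 14 lay above a background bound of 74.7, the 95th percentile of 1190 olfactory and vomeronasal receptor genes in the IKZF1 group (68.6 in the empty vector group). Their summed intensity was 74213 to 78168 on the IKZF1 arrays and 73211 to 80529 on the empty vector arrays. The array empty vector 3 stood apart from the other 5, at -41.7 on a first principal component that held 51.3% of the variance, where those 5 lay between -2.73 and 24.5. The second component held 33.9%. On it empty vector 3, at 2.34, lay between the IKZF1 arrays (12.3 to 16.9) and empty vector 1 and 2 (-20.2 and -25.9). All 9 members lay above the background bound in both groups.

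Ikaros-supplied cells held more transcript of 1 survival gene and of 1 death gene. Bcl2l1 was 1.55-fold and Bcl2l11 1.46-fold higher in the IKZF1 group than in the empty vector group, and these 2 of the 9 measured members passed the threshold, an adjusted p under 0.05 in limma over all genes. No member passed as lower, though 3 had a mean below that of the empty vector group. Across all genes tested 2.25% passed, 1.12% as higher and 1.13% as lower. The median log2 difference, IKZF1 minus empty vector, was 0.11 over the 9 members and 0.03 over all genes, and 6 members lay above 0 where 59.2% of all genes did. In 4 members, Bcl2l1, Bcl2l11, Mcl1 and Bmf, every IKZF1 array lay above every empty vector array, as for 15.2% of all genes tested, and in 0 members every IKZF1 array lay below, where 11.3% of all genes did so. In bulk samples such as these, more cells of a type and more RNA per cell cannot be told apart.

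**Figure D1:**
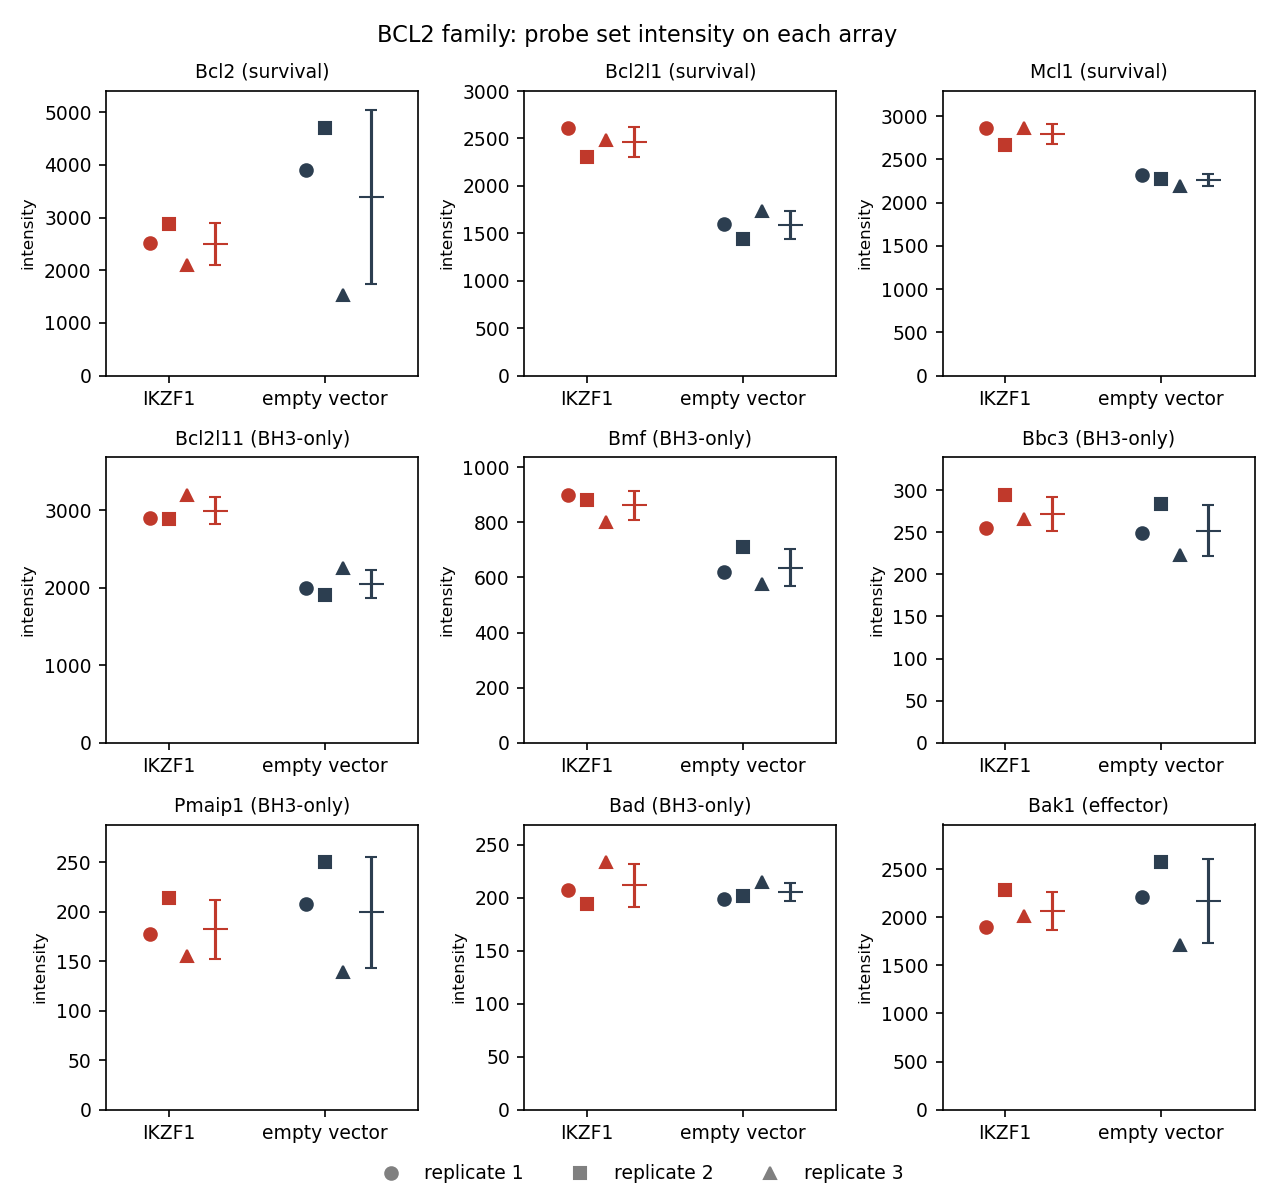
Probe set intensity (linear scale from 0) of the 9 measured members on each array, with IKZF1 arrays on the left and empty vector arrays on the right of each panel; the marker shape gives the replicate number, and the bar beside the points is the mean ± SD (n = 3). The groups separate in the panels of Bcl2l1, Mcl1, Bcl2l11 and Bmf, and empty vector 3 lies far below the other empty vector arrays in the panel of Bcl2.

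Stretches of 250 bases before annotated starts were searched, on both strands, for the Ikaros core motif TGGGAA, the FOXO motif GTAAACA and the STAT motif TTCNNNGAA. RefSeq promoter sequences (build GRCm38.p6) gave 17 such windows for 9 of the 10 listed genes, with Bax among them and several starts for some genes. The Ikaros core was found in 4 of the 17 windows, 1 of Bmf, both of Bad and that of Bax. It stood in 21.6% of all 32851 windows searched. These cover the chromosomes of those 9 genes but not that of Pmaip1, the listed gene without a window. The FOXO motif was found in 2 windows, 1 of Bcl2l11 and 1 of Bbc3 (3.17% of all windows), and the STAT motif in 0 (7.02% of all windows). No window of a member held more than 1 kind of motif. None of the 3 windows of Bcl2l1 held any of the motifs, which says only that these letters are absent from those windows. All windows of Bcl2l1, Mcl1 and Bbc3 lie inside the annotated span of the gene, so the bases before its outermost start were not searched. The window of Bmf with the Ikaros core lies inside its gene too. So do another window of Bmf, 1 window of Bad with the Ikaros core, and the window of Bcl2l11 without a motif. Shown here are the window of Bcl2l11, which passed, with its FOXO motif; that of Bbc3, which did not pass, with the same motif on the other strand; that of Bmf with 2 Ikaros cores; and the most upstream window of Bcl2l1 in the table. Sequences run 5′ to 3′ along the gene, and capitals mark the motif.
Bcl2l11, chr2:128125788-128126037, plus strand: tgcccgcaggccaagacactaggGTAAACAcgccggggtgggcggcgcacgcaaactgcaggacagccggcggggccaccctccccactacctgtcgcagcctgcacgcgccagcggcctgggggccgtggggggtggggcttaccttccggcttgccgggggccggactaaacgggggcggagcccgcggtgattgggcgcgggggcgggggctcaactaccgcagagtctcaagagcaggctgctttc
Bbc3, chr7:16310011-16310260, plus strand: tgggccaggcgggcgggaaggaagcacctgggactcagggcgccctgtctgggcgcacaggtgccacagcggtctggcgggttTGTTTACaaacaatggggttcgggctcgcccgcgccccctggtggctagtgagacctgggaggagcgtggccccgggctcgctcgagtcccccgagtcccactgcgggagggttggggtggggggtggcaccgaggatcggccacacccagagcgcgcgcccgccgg
Bmf, chr2:118544588-118544837, minus strand: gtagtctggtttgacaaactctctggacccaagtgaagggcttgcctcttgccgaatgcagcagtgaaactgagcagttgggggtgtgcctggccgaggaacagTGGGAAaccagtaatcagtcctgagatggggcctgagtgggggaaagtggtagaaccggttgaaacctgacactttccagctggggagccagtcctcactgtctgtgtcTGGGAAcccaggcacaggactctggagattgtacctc
Bcl2l1, chr2:152831729-152831978, minus strand: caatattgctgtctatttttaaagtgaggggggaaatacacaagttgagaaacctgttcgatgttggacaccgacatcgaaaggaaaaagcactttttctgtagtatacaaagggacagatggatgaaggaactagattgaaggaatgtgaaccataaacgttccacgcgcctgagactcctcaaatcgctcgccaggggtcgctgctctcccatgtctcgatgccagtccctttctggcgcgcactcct
The motif ends 221 bases before the start in Bcl2l11 and 161 bases before it in Bbc3, and the 2 cores of Bmf end 141 and 32 bases before the start. Bmf and Bad thus both held the Ikaros core, at log2 differences of 0.44 and 0.04, and Bcl2l11 and Bbc3 both held the FOXO motif, at 0.55 and 0.11.

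Among the survival genes, Bcl2l1 was the one that passed. It encodes BCL-XL, which protects pre-B cells from death. Bcl2l1 read 2614, 2301 and 2485 on the IKZF1 arrays, against 1596, 1442 and 1732 on the empty vector arrays. The groups did not overlap: every IKZF1 array was high and every empty vector array low. The log2 difference was 0.64 ± 0.09 (SE, n = 3 arrays per group; limma, adjusted p = 0.0267), which is 1.55-fold with a 95% interval of 1.34 to 1.80.

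Mcl1, which encodes a short-lived survival protein, read 2859, 2665 and 2866 on the IKZF1 arrays, against 2322, 2270 and 2187 on the empty vector arrays. The groups did not overlap and the arrays of each lay close together, with SDs of 114 in the IKZF1 group and 67.9 in the empty vector group (n = 3). The difference was smaller than that of Bcl2l1, 0.31 ± 0.06 on the log2 scale (SE), or 1.24-fold with a 95% interval of 1.12 to 1.37, and did not pass (limma, adjusted p = 0.0613). Mcl1 passed in 5 of the 18 other settings run, with a random replicate block, array weights, quantile normalization, cyclic loess and a pseudocount of 16 (limma, adjusted p from 0.0174 to 0.0443), and its adjusted p over all 18 ran from 0.0174 to 0.224.

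Bcl2, the founding survival gene of the family, showed another pattern. It read 2517, 2880 and 2094 on the IKZF1 arrays, against 3910, 4705 and 1531 on the empty vector arrays. Empty vector 1 and 2 were the highest of the 6 arrays and empty vector 3 the lowest, so that the IKZF1 arrays lay between them. The log2 difference was -0.30 ± 0.41 (SE; limma, adjusted p = 0.717), and the 95% interval of the fold, 0.41 to 1.61, reached far to either side of no change. Without empty vector 3 the difference was -0.79 ± 0.15 (limma, adjusted p = 0.0370), in a setting in which 4.75% of all genes passed, 1.81% as higher and 2.94% as lower. The summed intensities of 2 marker lists followed the same arrays. Those of 9 T cell genes were 949 to 1302 on the IKZF1 arrays and 683 to 1877 on the empty vector arrays, and those of 5 plasma cell genes 5357 to 6319 and 3698 to 7669, each with its lowest value on empty vector 3. Of the T cell genes, Cd3e, Cd5 and Lat lay above background, and of the plasma cell genes all but Tnfrsf17. No marker was at 0, and the part of other cells in the Bcl2 values was not tested.

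Whether the survival genes changed unequally was tested on the log2 difference between 2 genes within each array, with an exact permutation test over the 6 arrays (2-sided, 3 gene pairs, Benjamini-Hochberg over them; 3 arrays against 3 cannot go below p = 0.1). Bcl2l1 minus Mcl1 was -0.18 ± 0.05 in the IKZF1 group and -0.51 ± 0.16 in the empty vector group (SD, n = 3 each). The groups did not overlap, and the change of 0.33 had an exact p = 0.1 (adjusted 0.3). Bcl2l1 minus Bcl2 was -0.01 ± 0.29 in the IKZF1 group and -0.94 ± 0.99 in the empty vector group (SD, n = 3 each), a change of 0.93 with overlapping groups (exact p = 0.3, adjusted 0.3). Bcl2l1 minus the death gene Bcl2l11 was -0.28 ± 0.11 in the IKZF1 group and -0.37 ± 0.04 in the empty vector group (SD, n = 3 each). Those groups overlapped too, and the change of 0.09 (exact p = 0.3, adjusted 0.3) was the smallest of the 3. Taken by replicate number, as the IKZF1 array minus the empty vector array of numbers 1, 2 and 3, the change was 0.41, 0.44 and 0.13 for Bcl2l1 minus Mcl1, 1.35, 1.38 and 0.07 for Bcl2l1 minus Bcl2, and 0.17, 0.08 and 0.01 for Bcl2l1 minus Bcl2l11. All of these lay above 0, and the exact sign-flip test over the 3 pairs gave p = 0.25 for each, the smallest that 3 pairs allow. Bcl2l1 had the largest log2 difference of the measured members, so a mean change above 0 follows from taking the other genes from it. With such floors neither test could pass, so they do not decide whether the survival genes changed unequally.

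**Figure D2:**
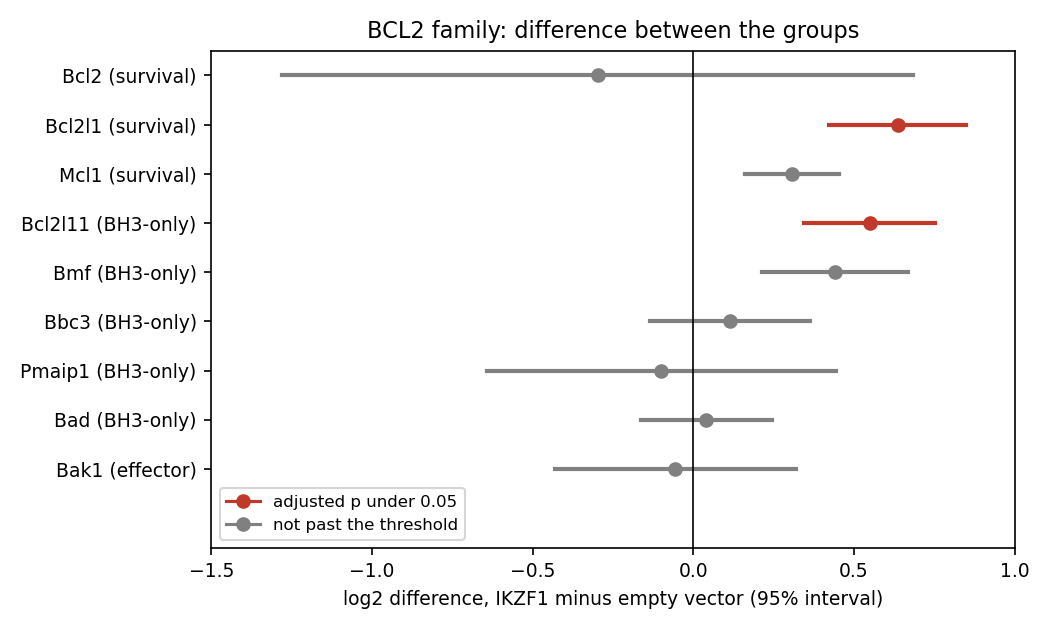
Log2 difference, IKZF1 minus empty vector, of the 9 measured members with its 95% interval from limma (n = 3 arrays per group); red marks an adjusted p under 0.05 and grey the others. Bcl2l1 (0.64) and Bcl2l11 (0.55) are the members in red, and Bcl2 and Pmaip1 have the widest intervals.

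Of the 5 BH3-only genes, 1 rose and 4 did not pass. Bcl2l11 encodes BIM, which binds every survival protein of the family. It read 2906, 2886 and 3203 on the IKZF1 arrays, against 1999, 1906 and 2253 on the empty vector arrays. The groups did not overlap, and in each group the third array was the highest. The log2 difference was 0.55 ± 0.08 (SE, n = 3 arrays per group; limma, adjusted p = 0.0335), which is 1.46-fold with a 95% interval of 1.27 to 1.68. With every array centred on its median the adjusted p was 0.0561, at a log2 difference of 0.51.

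Bmf, a BH3-only gene whose product binds the dynein light chain as BIM does, read 900.5, 882 and 802 on the IKZF1 arrays, against 621, 711 and 576 on the empty vector arrays. The groups did not overlap. The log2 difference was 0.44 ± 0.09 (SE; 1.36-fold, 95% interval 1.16 to 1.59) and did not pass (limma, adjusted p = 0.0754). With the replicate number, which the titles give to both groups, as a block in the fit, Bmf passed (limma, adjusted p = 0.0281), Mcl1 had an adjusted p of 0.0503, and 3 members were higher and 0 lower. In that fit 7.21% of all genes passed, 3.36% as higher and 3.85% as lower. Within the numbers 1, 2 and 3, Bmf was higher by 0.54, 0.31 and 0.48 on the log2 scale.

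The other BH3-only genes had overlapping groups and lower signals. Bbc3, which encodes PUMA, a p53 target, read 256, 295 and 265 on the IKZF1 arrays, against 249, 283 and 223 on the empty vector arrays (log2 difference 0.11, 95% interval -0.14 to 0.36). Pmaip1, which encodes NOXA, the BH3-only partner of MCL1, read 178, 214 and 155 on the IKZF1 arrays, against 208, 251 and 139 on the empty vector arrays (log2 difference -0.10, 95% interval -0.64 to 0.44). Bad, whose product is held by 14-3-3 proteins when growth factor signalling is on, read 207, 194 and 234 on the IKZF1 arrays, against 199, 202 and 215 on the empty vector arrays (log2 difference 0.04, 95% interval -0.16 to 0.24). Their adjusted p in limma were 0.586 for Bbc3, 0.833 for Pmaip1 and 0.814 for Bad. The intervals show that a change like that of Bcl2l11, 0.55, lies outside those of Bbc3, Pmaip1 and Bad.

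Bak1 was the effector gene measured. It read 1897, 2280 and 2008 on the IKZF1 arrays, against 2213, 2576 and 1713 on the empty vector arrays. The groups overlapped, with empty vector 3 the lowest of all 6 arrays, as for Bcl2 and Pmaip1. The log2 difference was -0.06 ± 0.16 (SE; 95% interval -0.43 to 0.32; limma, adjusted p = 0.864).

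The members fell into 2 patterns by where their spread lay. In Bcl2l1, Mcl1, Bcl2l11 and Bmf, the difference between groups held 82.3% to 92.9% of the sum of squares of the 6 log2 values. In the other 5 members it held 2.18% to 19.4%, and the difference between replicate numbers 67.1% to 87.2%. In Bcl2, Bbc3, Pmaip1 and Bak1 the second array was the highest in each group. For Bcl2, the IKZF1 array minus the empty vector array of the same number was -0.64, -0.71 and 0.45 on the log2 scale, for Pmaip1 -0.23, -0.23 and 0.15, and for Bak1 -0.22, -0.18 and 0.23. In all 3 genes the third pair thus ran against the first and second, as the values on empty vector 3 had shown. Numbers held more than groups in 59.8% of all genes tested, and in 5 of the 9 members. Over all genes the median share was 27.1% between groups and 41.3% between numbers. With 3 numbers and 2 groups, noise alone would give numbers the larger share, so these counts do not measure an effect of the number.

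**Figure D3:**
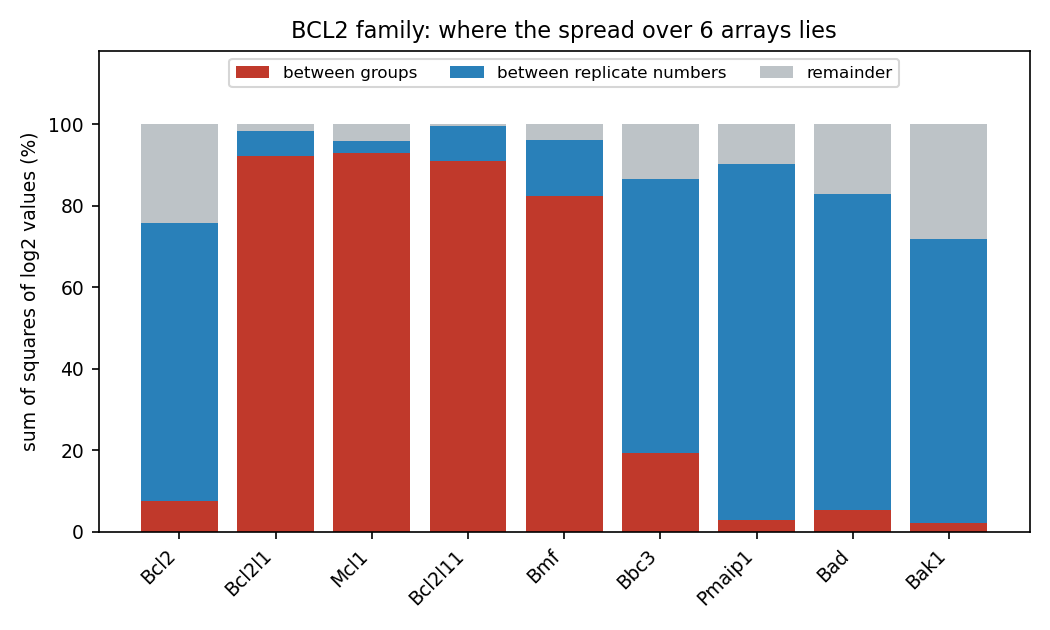
Share (%) of the sum of squares of the 6 log2 values that lies between groups (red), between replicate numbers (blue) and in the remainder (grey), for the 9 measured members. Red fills most of the bar for Bcl2l1, Mcl1, Bcl2l11 and Bmf, and blue for Bcl2, Bbc3, Pmaip1, Bad and Bak1.

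The calls of Bcl2l1 and Bcl2l11 were lost in 5 of the 6 fits with 1 array left out, while the sizes of the differences changed less. Bcl2l1 no longer passed without any 1 of the arrays IKZF1 1, 2 and 3 or empty vector 1 and 2 (limma, adjusted p from 0.0589 to 0.156), while its log2 difference over the 6 fits with an array left out was 0.57 to 0.70. Bcl2l11 was lost without the same 5 arrays (limma, adjusted p from 0.0821 to 0.177), at 0.50 to 0.62. In those 5 fits 0.12% to 0.818% of all genes passed, against 2.25% with all 6 arrays, so calls were lost among all genes. Without empty vector 3, where 4.75% of all genes passed, both members passed (limma, adjusted p = 0.0123 for Bcl2l1 and 0.0135 for Bcl2l11). Mcl1 ran from 0.28 to 0.34 and Bmf from 0.37 to 0.52 over the 6 fits, and neither passed in any of them. Bcl2 ran from -0.79 to 0.02. Of the lists of other cell types, that of 8 stromal or endothelial genes was also separated by group, with sums of 2338 to 2468 on the IKZF1 arrays and 1716 to 2125 on the empty vector arrays. Of its genes Pecam1, Col1a1, Col1a2 and Col3a1 lay above background, 0 of the 8 passed the threshold, and its part in the values of Bcl2l1 and Bcl2l11 was not tested.

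**Figure D4:**
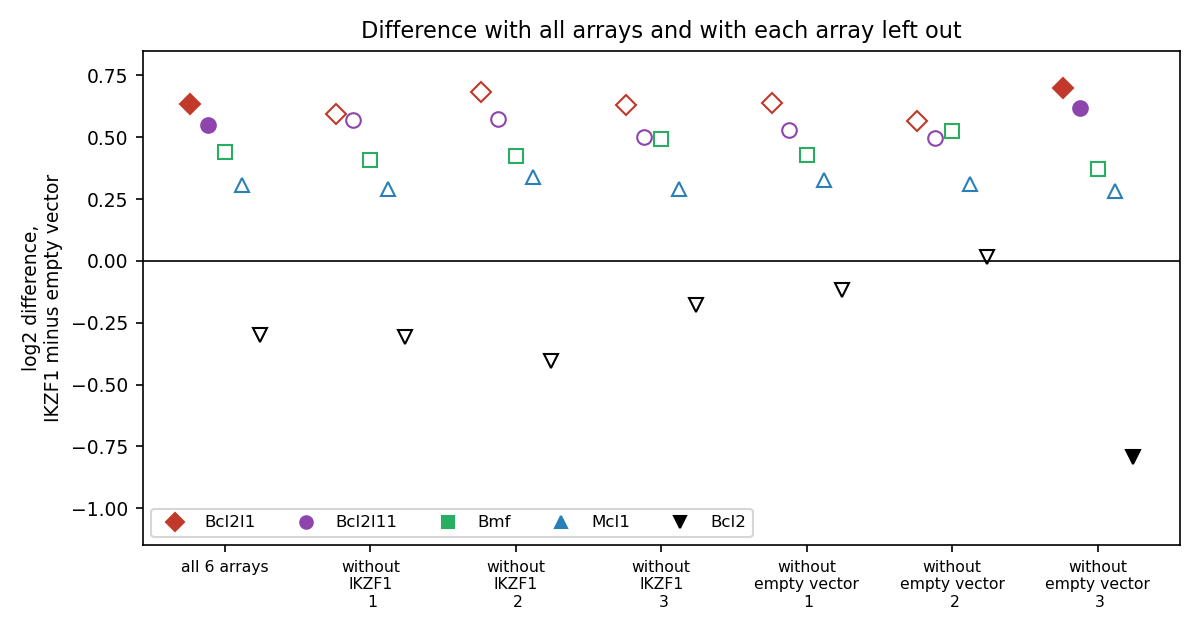
Log2 difference, IKZF1 minus empty vector, of Bcl2l1, Bcl2l11, Bmf, Mcl1 and Bcl2 with all 6 arrays and with each array left out; filled markers have an adjusted p under 0.05 in limma and open markers do not. Bcl2l1, Bcl2l11, Bmf and Mcl1 stay above 0 throughout, and Bcl2 runs from -0.79 without empty vector 3 to 0.02 without empty vector 2.

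The genes most alike to the 2 risers were found by the root mean square difference of their log2 values over the 6 arrays, after taking from each gene its own mean. For Bcl2l1 these were the small nucleolar RNA gene Snora62 (0.045), the guanylate-binding protein gene Gbp9 (0.058) and Gne (0.058), whose product starts sialic acid synthesis. For Bcl2l11 they were Castor2 (0.053), Nfkbia (0.054), which encodes the NF-kB inhibitor IkB alpha, and again Gne (0.054). Gne read 2042, 1932 and 2196 on the IKZF1 arrays, against 1275, 1204 and 1470 on the empty vector arrays. Nfkbia read 2601, 2645 and 2686 on the IKZF1 arrays, against 1834, 1793 and 1974 on the empty vector arrays. Bcl2l1 and Bcl2l11 were close to each other as well, at 0.082, which placed Bcl2l11 at rank 13 from Bcl2l1 and Bcl2l1 at rank 23 from Bcl2l11 among all genes tested. Both entered this search because they passed as higher, so their closeness follows in part from that choice. Mcl1 stood at rank 312 and Bmf at rank 435 from Bcl2l1.

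Around the members, no gene of the rest of the BCL2 family or of the machinery below it passed. Across all genes tested 2.25% passed, so 0 calls in lists this short say little about these genes. Of 11 measured of 14 other BCL2 family genes, limma called 0, and 1 had an unadjusted p below 0.05, Bok (log2 difference 0.26), which encodes a relative of BAX and BAK. Of all genes tested 18.4% had an unadjusted p below 0.05, and the counts of such genes in the lists around the members stand against that share. Their median log2 difference was 0.03, as over all genes. Bcl2l2, the gene of the survival protein BCL-W, read 132, 133 and 124 on the IKZF1 arrays, against 199, 230 and 123 on the empty vector arrays, with empty vector 3 apart as for Bcl2 (log2 difference -0.45; limma, adjusted p = 0.334). Of 15 measured of 17 genes of the apoptosome, caspases and their inhibitors, limma called 0, and 3 had an unadjusted p below 0.05. The median log2 difference of these 15 was -0.06. Casp9, the initiator caspase of the mitochondrial route, had a log2 difference of 0.33 (limma, adjusted p = 0.122), and Htra2, a mitochondrial protease, one of -0.29 (adjusted p = 0.138). Of 13 measured of 14 death receptor and ligand genes, limma called 0, and 3 had an unadjusted p below 0.05, led by the adaptor gene Fadd (-0.35, adjusted p = 0.134); their median was 0.0018.

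Among 19 genes whose products bind the members or govern their turnover, 1 fell and 18 did not pass, with a median log2 difference of -0.09. Across all genes tested 1.13% passed as lower. Of the 19, 5 had an unadjusted p below 0.05 in limma, where 18.4% of all genes had one. In 8 every IKZF1 array lay below every empty vector array and in 2 above, where 11.3% and 15.2% of all genes did so. Bnip3, which encodes a mitochondrial BH3-like protein of mitophagy and hypoxia, read 3596, 3234 and 3702 on the IKZF1 arrays, against 4773, 5061 and 5159 on the empty vector arrays, a log2 difference of -0.51 ± 0.07 (SE; limma, adjusted p = 0.0284). Its groups did not overlap. Ywhag, which encodes a 14-3-3 protein, had a log2 difference of 0.29 (limma, adjusted p = 0.0637). Of 15 measured of 17 genes of the p53 pathway, limma called 0, and 3 had an unadjusted p below 0.05. Their median log2 difference was 0.06. The antiproliferative gene Btg2 had the largest difference of these, 0.87 on the log2 scale (limma, adjusted p = 0.233), and with the replicate block its adjusted p was 0.00668, past the threshold.

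Of 26 measured of 27 transcription factor genes known to act on members, 3 rose, 2 fell and 21 did not pass, and their median log2 difference was 0.14. Across all genes tested 1.12% passed as higher and 1.13% as lower. An unadjusted p below 0.05 in limma was found for 11 of the 26, where 18.4% of all genes had one. In 10 every IKZF1 array lay above every empty vector array and in 4 below, where 15.2% and 11.3% of all genes did so. The risers were the NF-kB subunit genes Nfkb2 (0.54; limma, adjusted p = 0.0238) and Relb (0.33; adjusted p = 0.0369, named after its value was seen) and Ets1, an Ets family factor gene of lymphocytes (0.50; adjusted p = 0.0156). Ets1 read 2233, 2296 and 2241 on the IKZF1 arrays, against 1668, 1565 and 1547 on the empty vector arrays. The genes that fell belong to the stress response that is known to induce BIM and PUMA: Ddit3, the gene of CHOP (-0.85; limma, adjusted p = 0.0405), and Atf4 (-0.68; adjusted p = 0.00734). Ddit3 read 268, 233 and 238 on the IKZF1 arrays, against 538, 446 and 367 on the empty vector arrays. With the replicate block 3 were higher and 4 lower, in a fit in which 3.36% of all genes passed as higher and 3.85% as lower. Added were Atf3, a further stress response gene (-1.18, limma adjusted p = 0.0845 without the block and 0.0485 with it), and Myc (-0.39, limma adjusted p = 0.204 without the block and 0.0413 with it). Both were named after their values were seen. The FOXO and STAT5 genes, whose products act through 2 of the motifs searched above, did not pass: Foxo1 had a log2 difference of 0.42, Foxo3 one of -0.06, Stat5a one of 0.21 and Stat5b one of 0.13, with adjusted p in limma of 0.28, 0.672, 0.211 and 0.334; these 4 were named after their values were seen.

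**Figure D5:**
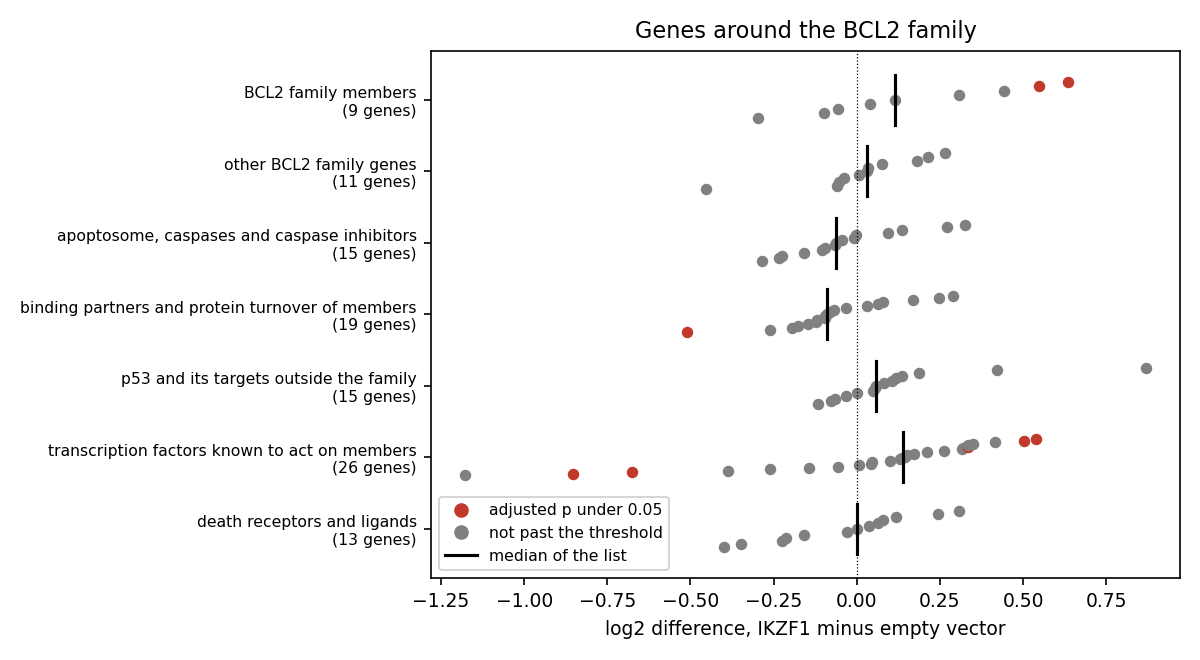
Log2 difference, IKZF1 minus empty vector, of every measured gene of the BCL2 family members and of 6 lists around them; red marks an adjusted p under 0.05 in limma, grey the others, and the black line the median of the list. Red points stand among the members (2), the binding partners (1) and the transcription factors (5).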

How the data were processed

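Total RNA was hybridised to 6 Affymetrix arrays, 3 per group, grouped by the titles and the stated transduction. The authors deposited 1 intensity per probe set, normalized by RMA per the submitters' processing notes; for its version and software, the sources used here give nothing. The deposited intensities run from 11.1 to 23523, so they were read as linear, a reading made from the values alone. RMA equalises the arrays, which can hide a change that most genes share, and background left in dim probe sets may understate their fold changes.

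From these intensities log2(intensity + 1) was computed, and fold changes are on that scale. Of 35421 probe sets, 21789 had 1 symbol (1621 had several and 12011 were unnamed here). Symbols were updated through RefSeq gene numbers. The brightest probe set stood for a gene with several. Each member had 1, so no further probe set of a member could be tested. The IKZF1 and empty vector groups were set against each other with limma 3.58.1 (R 4.3.3; lmFit and eBayes, 2-sided) and Benjamini-Hochberg adjustment over 19936 genes. The script was tested on simulated data.

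Titles give both groups the replicate numbers 1 to 3 without saying what they mark. After subtracting group means, arrays of like number correlated across genes (r = 0.24, 0.60 and 0.66), all above 0.1, and 1 pair of unlike numbers also reached 0.11. The number was therefore also fitted as a block. The reported fit, with its SEs, intervals and adjusted p, holds the group only and ignores the numbers. The fit with the number as a block is given where it changes a call.

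Genes named from other lists were up to 4 per list: called genes ranked by size, and after them the lowest p. Members and lists were chosen with earlier results of these data known. The number of arrays limits the precision.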

Additional observations from a re-analysis of the deposited data

How the results depend on the processing

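Of the 18 other settings run for the members, 2 members passed with a pseudocount of 0, with brighter genes (mean log2 level of at least 6.5), with the mean of probe sets, with an intensity trend in the prior and with a robust prior, and 3 passed with the replicate block (adding Bmf) and with a pseudocount of 16, quantile normalization and cyclic loess (each adding Mcl1). A random replicate block and array weights each gave 4, adding Mcl1 and Bmf, but these settings passed more genes overall: 1664 and 1481 of all genes, and the replicate block 1438, against 448 in the reported fit. The estimate of the array weights stopped before its convergence tolerance was reached. The pseudocount of 16, quantile normalization and cyclic loess passed 558, 547 and 559 genes, and centring on the array median gave 1, Bcl2l1. With 1 array left out the count lay between 0 and 3, in fits that passed 24 to 947 of all genes. All members called in these settings were higher, except Bcl2 without empty vector 3. Log2 differences of Bcl2l1, Bcl2l11, Mcl1, Bmf and Bbc3 kept their sign in all 18. The other 4 did not. With 1 array left out, Bad ran from -0.033 to 0.10, turning without IKZF1 3, and it was -0.0020 with centred arrays. Bak1 ran from -0.22 to 0.078, turning without IKZF1 1 (0.0015) or empty vector 2. Pmaip1 ran from -0.34 to 0.085, turning without IKZF1 3 or empty vector 2, and Bcl2 from -0.79 to 0.017, turning without empty vector 2. The cause was not tested, beyond fewer arrays in the fits with 1 left out. The differences between gene pairs (adjusted exact p = 0.3, or 0.25 by replicate number) could not pass, since these exact tests cannot go below p = 0.1 and 0.25. They kept their sign, which follows from taking the other genes from the member with the largest log2 difference. With 1 array left out, Bcl2l1 minus Bcl2l11 ran from 0.02 to 0.13, Bcl2l1 minus Bcl2 from 0.55 to 1.49 and Bcl2l1 minus Mcl1 from 0.26 to 0.42. With the replicate block 1 gene of the p53 pathway list passed (Btg2), against 0 without it, and the transcription factor list had 3 higher and 4 lower (adding Atf3 and Myc), against 3 higher and 2 lower. The pairing by replicate number of the gene pairs was chosen after seeing the data.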

Other observations

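By RefSeq gene numbers (assembly GRCm38.p6), 3 of the 4 members whose groups did not overlap, Bcl2l1, Bcl2l11 and Bmf, lie on mouse chromosome 2. The chromosome as a whole was not shifted: its 1732 genes tested had a median log2 difference of 0.04, IKZF1 minus empty vector, where all genes had 0.03, and 1.04% of them passed as higher, where 1.12% of all genes did. Every IKZF1 array lay above every empty vector array in 14.8% of them, where this held for 15.2% of all genes.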
